A study of Mus musculus with 2 samples.

Results

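The genes described here are the ion channels that shape the electrical activity of islet cells. They were taken by symbol from the deposited table of mouse islet RNA: genes beginning with Kcn, Cacn or Clcn, genes of the Scn, Hcn and Ano families, the Trpm, Trpv and Trpc genes, and the sulfonylurea receptor genes Abcc8 and Abcc9. The table listed 17245 genes, and 161 of them were such channel genes. RNA came from islets of mice with cGAS, a sensor of DNA in the cytosol, knocked out in β-cells (KO) and from islets of wild-type mice (WT), isolated with collagenase, picked by hand and cultured, with 1 library per genotype. The sources used here do not give strain, age, sex, the number of animals behind a library, the deleted exon or the driver of the deletion. With 1 library per genotype no difference has a replicate check, and the intervals given below cover counting error only. Cgas was at 0.521 FPKM in the KO-labelled library and at 0.205 FPKM in the WT library (FPKM counts sequenced fragments, scaled per kilobase of gene length and per 1000000), so its RNA was not lower under the KO label; a gene total cannot show whether the deleted part was read. The library is therefore called the KO-labelled library, and every direction is between the 2 libraries as labelled.

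In β-cells, glucose metabolism raises ATP, ATP closes ATP-sensitive potassium (KATP) channels, and the membrane depolarises. Voltage-gated calcium channels then open, and the calcium that enters triggers release of insulin granules. Voltage-gated, calcium-activated and background potassium channels repolarise the membrane and pace its bursts of action potentials, while sodium, HCN, chloride and TRP channels carry currents that push the membrane towards or away from firing. Alpha and delta cells use many of the same genes.

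Both libraries carried the hormones that define islets. The 8 fixed β-cell markers, among them Ins1, Ins2, Mafa and Slc2a2, summed to 436639 FPKM in the KO-labelled library and to 394881 FPKM in the WT library, and none of them was at 0. They differed in both directions, with 3 of the 8 higher and 5 lower and a median log2 difference of -0.31. Ins1 was at 237131 FPKM in the KO-labelled library and 113793 FPKM in the WT library (ratio 2.08), whereas Ins2 was at 182558 and 250577 FPKM (0.729), the transcription factor Nkx6-1 at 53.1 and 140 FPKM (0.380), and the glucose transporter Slc2a2 at 72.3 and 152 FPKM (0.476). The library totals recovered from the values were 14537660 reads for the KO-labelled library and 19097001 reads for WT. Markers of other cells differed between the libraries as well. The 8 acinar markers summed to 78.3 FPKM in the KO-labelled library and 1582 FPKM in the WT library, and 7 of the 7 expressed members were at least 2-fold lower. The 8 endothelial markers summed to 579 and 253 FPKM in the KO-labelled library and the WT library, the 8 mural and stromal markers to 168 and 84.9 FPKM, and the 8 macrophage markers to 280.2 and 119 FPKM; all 24 of these were higher in the KO-labelled library, 10 of them at least 2-fold. Alpha-cell markers summed to 27871 and 28202 FPKM in the KO-labelled library and the WT library, and delta-cell markers to 4669 and 2994 FPKM. Ductal markers summed to 193 and 176 FPKM, of which Krt7 held 134 and 139 FPKM. Spp1 was at 55.6 and 34.9 FPKM, Krt19 at 3.01 and 1.41 FPKM and Sox9 at 0.946 and 0.480 FPKM. Glial and neuronal markers summed to 157 and 117 FPKM, of which Snap25 held 80.5 and 54.8 FPKM and Tubb3 56.6 and 47.6 FPKM. The neuron-defining Rbfox3 was at 0.185 FPKM in the KO-labelled library and 0.118 FPKM in the WT library, and the glia-defining Sox10 at 3.12 and 2.22 FPKM. In RNA from whole islets, fewer cells of a type and less RNA per cell cannot be told apart, and the part of these cell types in the channel values below was not tested.

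Of the 161 channel genes, 89 reached 1 FPKM in at least 1 library and were counted as expressed. On the log2(FPKM + 1) scale, which understates the change of low genes, 82 of these lay within 2-fold between the libraries. In all, 4 of the 89 were at least 2-fold higher in the KO-labelled library, against 6.98% of all 12428 expressed genes, and 3 were at least 2-fold lower, against 3.88% of all expressed genes. Those shares of the channel genes were 4.49% and 3.37%, close to the background. The median log2 difference was 0.17 for the expressed channel genes and 0.077 for all expressed genes. Above 0 lay 57 of the 89 channel genes (64.0%), against 54.4% of all expressed genes. None of the 7 called genes was called with a pseudocount of 5 FPKM, and with one of 0.1 FPKM 10 were higher and 6 lower, against 12.5% and 5.76% of all expressed genes. With each library scaled to a sum of 1000000 the counts were 2 higher and 4 lower, against 5.36% and 6.16% of all expressed genes, and the medians 0.040 for channel genes and -0.039 for all genes. The levels of the 89 genes had a Spearman correlation of 0.86 between the libraries, given as a description across genes that share both libraries.

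The channel repertoire was headed by the same 3 genes in both libraries. Abcc8, Kcnk16 and Kcnj11 held ranks 1, 2 and 3 by FPKM in each. All 161 genes together summed to 1064 FPKM in the KO-labelled library and 961 FPKM in the WT library. Abcc8 made up 36.2% of that sum in the KO-labelled library and 27.7% in the WT library, and Kcnk16 12.3% and 20.6%. At 10 FPKM or more there were 16 channel genes in each library, and of the 19 that reached this level in either one, 11 were higher in the KO-labelled library.

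The KATP channel of β-cells is built from the pore Kcnj11 and the sulfonylurea receptor Abcc8, its regulatory subunit and the target of glibenclamide. Abcc8 was at 385 FPKM in the KO-labelled library and 266 FPKM in the WT library, giving a ratio of 1.45 (exact 95% interval 1.42 to 1.47). Kcnj11 was at 42.5 FPKM in the KO-labelled library and 56.7 FPKM in the WT library, giving a ratio of 0.748 (0.709 to 0.790). The subunits of 1 channel thus lay on opposite sides of equality, both within 2-fold, with intervals that did not reach 1. Abcc8 FPKM was 9.07 times Kcnj11 FPKM in the KO-labelled library and 4.69 times in the WT library. Both genes lie on the minus strand of chromosome 7 in GRCm38 (GENCODE M21), Abcc8 from 46104523 to 46180033 and Kcnj11 from 46093953 to 46100764, with 3758 bases between them. Once the dependence on GC content and transcript length was fitted and subtracted, the log2 differences were 0.27 for Abcc8 and -0.77 for Kcnj11, against 0.53 and -0.41 without it.

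The other KATP pair, the pore Kcnj8 and the receptor Abcc9, is best known from vascular smooth muscle and pericytes. Kcnj8 was at 1.67 FPKM in the KO-labelled library and 0.617 FPKM in the WT library, giving a ratio of 2.71 with a wide interval (1.42 to 5.41) that rests on at least 31 and 15 reads. Abcc9 was at 2.69 and 2.28 FPKM in the KO-labelled library and the WT library, giving a ratio of 1.18 (1.01 to 1.38). These genes are neighbours on chromosome 6, from 142564837 to 142571614 and from 142587862 to 142702315, with 16247 bases between them. The mural and stromal markers were higher in the same library, as given above.

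**Figure D1:**
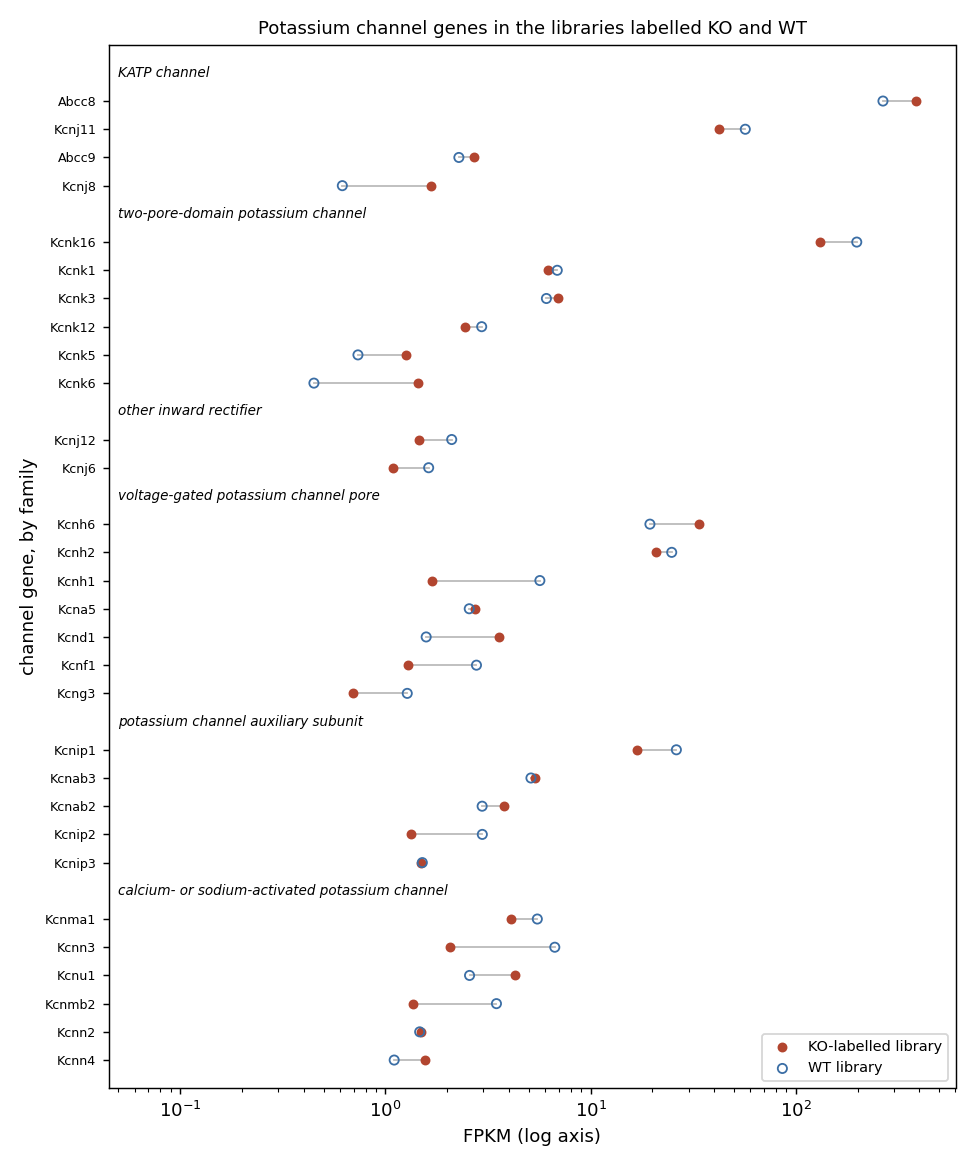
FPKM on a log axis of the expressed potassium channel genes described in the text, grouped by family, with filled circles for the KO-labelled library and open circles for the WT library, 1 library each. Abcc8, Kcnk16 and Kcnj11 stand above the others in both libraries, and Kcnh1 and Kcnn3 show the widest gaps among the called genes plotted.

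Tandem-pore-domain potassium channels carry background current. Kcnk16, the TALK-1 channel, known for its restriction to islets among tissues, was at 131 FPKM in the KO-labelled library and 198 FPKM in the WT library, giving a ratio of 0.662 (0.639 to 0.686). Its log2 difference was -0.59, and -0.98 once the GC and length dependence was subtracted. Kcnk3, the acid-sensitive TASK-1 channel, was at 6.95 FPKM in the KO-labelled library and 6.09 FPKM in the WT library, the ratio having an interval from 0.993 to 1.31. Kcnk1 was at 6.19 and 6.88 FPKM and Kcnk12 at 2.43 and 2.94 FPKM in the KO-labelled library and the WT library. Kcnk5, the alkaline-activated TASK-2 channel, was at 1.27 FPKM in the KO-labelled library and 0.735 FPKM in the WT library. Kcnk6, picked with its values in view, was at 1.45 FPKM in the KO-labelled library and 0.448 FPKM in the WT library (ratio 3.23, 2.16 to 4.93), a log2 difference of 0.76. Thus 3 of the 6 expressed members were higher and 3 lower, none of them called on the log2(FPKM + 1) scale, and Kcnk16 was the one member above 10 FPKM. Among inward rectifiers outside the KATP channel, 2 of 13 were expressed and both were lower in the KO-labelled library. Kcnj12, a strong inward rectifier, was at 1.46 FPKM against 2.10 FPKM in the WT library, and Kcnj6, a subunit of the G-protein-gated channels, at 1.08 FPKM against 1.62 FPKM in the WT library.

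Voltage-gated potassium pores open on depolarisation and end the action potential. Of 35 listed genes 18 were expressed, with 12 higher and 6 lower in the KO-labelled library and a median log2 difference of 0.16. That median was 0.022 with each library scaled to a sum of 1000000 and turned to -0.13 after subtraction of the GC and length trend. The ether-a-go-go-related genes led the group. Kcnh6 was at 33.8 FPKM in the KO-labelled library and 19.5 FPKM in the WT library (ratio 1.74, 1.64 to 1.84), and Kcnh2, whose human counterpart is the hERG channel of the heart, at 20.9 and 24.8 FPKM (ratio 0.842, 0.787 to 0.900). Kcnh6 therefore made up 61.8% of their summed FPKM in the KO-labelled library and 43.9% in the WT library. The order of the pair by FPKM was thus reversed between the libraries, but that order depends on the gene lengths behind FPKM. For Kcnh6 the values imply at least 5901 bases, against 3549 bases of GENCODE M21 exons, and for Kcnh2 4655 against 4845. In the WT library the 2 genes rest on at least 2192 and 2208 reads.

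The A-type pore Kcnd1 was at 3.60 and 1.58 FPKM in the KO-labelled library and the WT library, and the electrically silent modifier Kcnf1 at 1.29 and 2.78 FPKM. Neither reached the 2-fold limit on the log2(FPKM + 1) scale, with log2 differences of 0.83 and -0.72. Their FPKM ratios were 2.28 (1.77 to 2.94) and 0.465 (0.362 to 0.594). Kcnd1 and Kcnf1 were chosen after their values were seen. The voltage-gated pore called lower was Kcnh1, the founding ether-a-go-go channel. Kcnh1 was at 1.68 FPKM in the KO-labelled library and 5.66 FPKM in the WT library, 3.36-fold lower (2.92 to 3.88), with a log2 difference of -1.31. In rank among the 161 channel genes Kcnh1 stood at 61 in the KO-labelled library and 28 in the WT library. After subtraction of the GC and length trend its difference was -1.24. In GRCm38, Kcnh1 lies on chromosome 1 from 192190774 to 192510159.

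Auxiliary subunits set the gating and surface delivery of these pores. Kcnip1, a calcium-binding partner of A-type pores, was the most abundant, at 16.9 FPKM in the KO-labelled library and 26.2 FPKM in the WT library (ratio 0.646, 0.591 to 0.707). Its relative Kcnip2 was at 1.34 and 2.97 FPKM in the KO-labelled library and the WT library, and Kcnip3 at 1.49 and 1.51 FPKM. The β-subunits Kcnab3 and Kcnab2 were at 5.37 and 3.76 FPKM in the KO-labelled library, against 5.12 and 2.96 FPKM in the WT library. Of the 7 expressed auxiliary genes 4 were higher and 3 lower, and none was called.

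Calcium-activated potassium channels couple the calcium signal back to the membrane. Kcnn3, a small-conductance channel opened by calcium through calmodulin, was at 2.07 FPKM in the KO-labelled library and 6.69 FPKM in the WT library, 3.23-fold lower (2.80 to 3.75). Its log2 difference of -1.33 was the lowest of the 89 channel genes. Its close relative Kcnn2 was at 1.49 FPKM in the KO-labelled library and 1.47 FPKM in the WT library, giving a ratio of 1.01 (0.759 to 1.35). Kcnn3 lies on the plus strand of chromosome 3 from 89520164 to 89675132. The large-conductance pore Kcnma1 was at 4.09 and 5.50 FPKM in the KO-labelled library and the WT library (ratio 0.745, 0.690 to 0.804), with a log2 difference of -0.35 that turned to 0.065 after subtraction of the GC and length trend. Its auxiliary subunit Kcnmb2 was at 1.36 and 3.48 FPKM in the KO-labelled library and the WT library (2.56-fold lower, 2.32 to 2.82). On the scale with a pseudocount of 1 the difference of Kcnmb2 was -0.92, short of the limit. Kcnu1, a pore best known from sperm, was at 4.28 FPKM in the KO-labelled library and 2.57 FPKM in the WT library.

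Voltage-gated calcium pores admit the calcium that triggers exocytosis. Of 10 listed pores 6 were expressed, 5 of them higher and 1 lower in the KO-labelled library, with a median log2 difference of 0.40 that stayed above 0 under all 8 alternative settings. None was called. Cacna1a, the pore of P/Q-type channels, was at 20.5 FPKM in the KO-labelled library and 10.5 FPKM in the WT library, giving a ratio of 1.96 (1.84 to 2.08). Cacna1d, an L-type pore of β-cells, was the member that was lower, at 9.10 FPKM against 12.3 FPKM in the WT library, giving a ratio of 0.739 (0.702 to 0.778).

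The other L-type pore, Cacna1c, was at 7.32 FPKM in the KO-labelled library and 5.27 FPKM in the WT library (ratio 1.39, 1.19 to 1.62). The L-type pair summed to 16.4 FPKM in the KO-labelled library and 17.6 FPKM in the WT library. Cacna1a made up 47.6% of the summed FPKM of the 6 expressed pores in the KO-labelled library and 32.5% in the WT library. It was the highest pore in the KO-labelled library, while Cacna1d was the highest in the WT library. The N-type pore Cacna1b was at 2.89 and 2.62 FPKM and the T-type pore Cacna1h at 2.22 and 1.05 FPKM in the KO-labelled library and the WT library. Antisense or opposite-strand genes share 3.81% of the exon bases of Cacna1a and 4.67% of those of Cacna1d.

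Auxiliary calcium channel subunits traffic the pores and tune their opening. Of 7 expressed genes 5 were higher and 2 lower in the KO-labelled library. The cytosolic β-subunit Cacnb3 was at 30.1 FPKM in the KO-labelled library and 18.8 FPKM in the WT library (ratio 1.60, 1.50 to 1.71), and Cacnb1 at 9.23 and 5.08 FPKM. Cacng4, a γ-subunit that in brain also serves AMPA receptors, was at 6.82 FPKM against 3.86 FPKM in the WT library. The members that were lower were Cacnb2, at 3.88 FPKM against 5.31 FPKM in the WT library, and the extracellular α2δ subunit Cacna2d1, at 5.06 FPKM against 7.02 FPKM in the WT library. The log2 difference of Cacna2d1 was -0.40, and 0.10 after subtraction of the GC and length trend. No auxiliary gene was called.

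Voltage-gated sodium channels carry the fast upstroke of the action potential. Of 7 expressed genes 4 were higher and 3 lower in the KO-labelled library, none of them called on the log2(FPKM + 1) scale. Scn9a, the most abundant sodium pore here and a major one of mouse β-cells, was at 4.52 FPKM in the KO-labelled library and 6.27 FPKM in the WT library (ratio 0.720, 0.654 to 0.793). Its log2 difference of -0.40 turned to 0.088 after subtraction of the GC and length trend, so its direction depends on that step. Scn8a was at 3.74 and 2.32 FPKM in the KO-labelled library and the WT library (ratio 1.61, 1.34 to 1.93), and Scn7a at 2.95 and 3.09 FPKM. The β-subunit Scn3b was at 3.94 FPKM in the KO-labelled library and 4.06 FPKM in the WT library. HCN channels open on hyperpolarisation and pace firing. Hcn2 was at 15.4 FPKM in the KO-labelled library and 13.2 FPKM in the WT library (ratio 1.17, 1.06 to 1.30), Hcn3 at 11.5 and 7.58 FPKM (1.51, 1.34 to 1.72) and Hcn4 at 2.63 and 4.49 FPKM (0.587, 0.504 to 0.682). Hcn3 shares 17.1% of its exon bases with the opposite-strand gene Pklr, so its reads are less certain. The median log2 difference of the 3 HCN genes was 0.21, and -0.37 after subtraction of the GC and length trend.

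**Figure D2:**
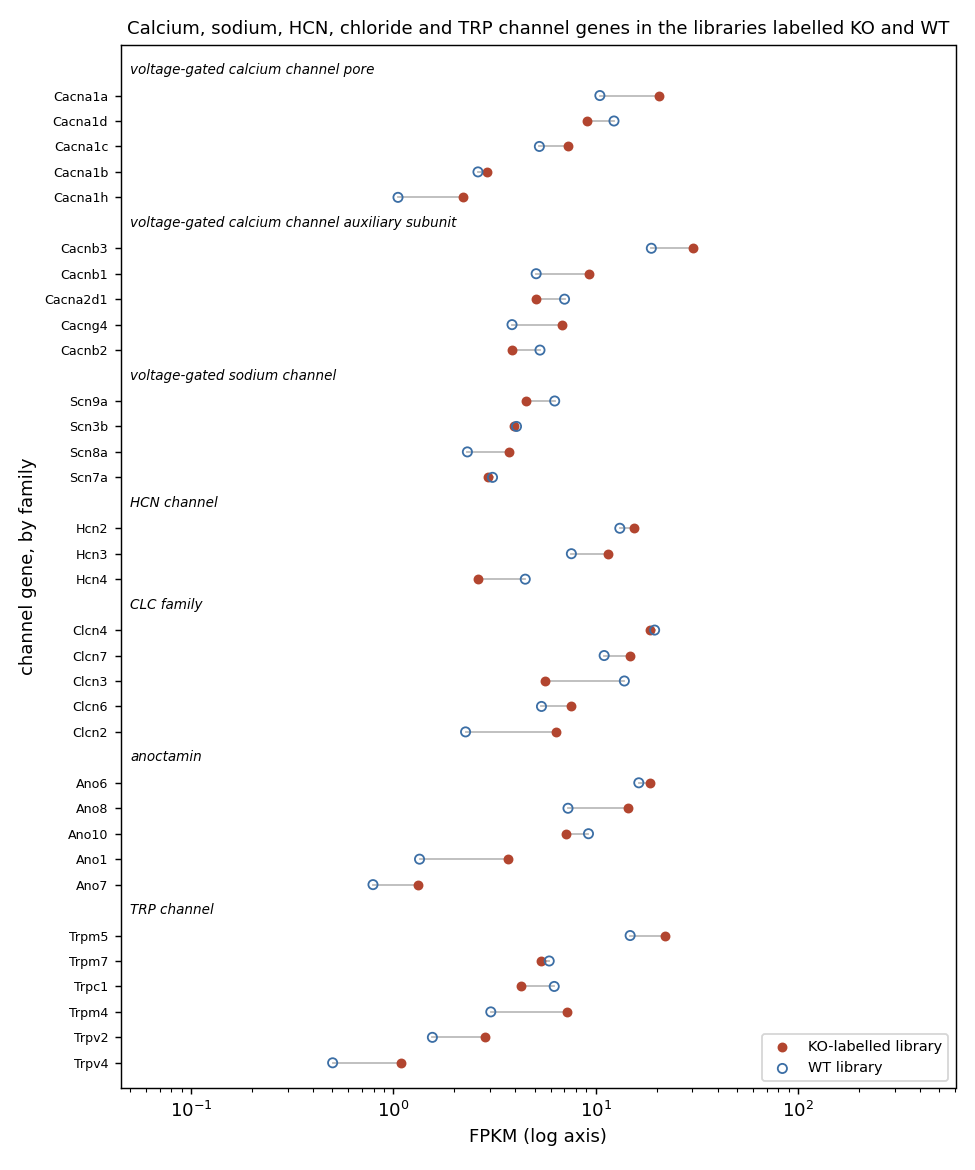
FPKM on a log axis of the expressed calcium, sodium, HCN, chloride and TRP channel genes described in the text, grouped by family, with filled circles for the KO-labelled library and open circles for the WT library, 1 library each. Cacna1a lies above Cacna1d in the KO-labelled library and below it in the WT library, and the widest gaps among the called genes are those of Clcn2, Clcn3, Ano1 and Trpm4.

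The CLC family differed in both directions. It holds plasma-membrane chloride channels and the chloride-proton exchangers of endosomes, lysosomes and granules. Clcn2, a plasma-membrane channel opened by hyperpolarisation, was at 6.34 FPKM in the KO-labelled library and 2.28 FPKM in the WT library, giving a ratio of 2.78 (2.34 to 3.32) and a log2 difference of 1.16. Clcn3, an exchanger of endosomes and secretory vesicles, was at 5.61 FPKM in the KO-labelled library and 13.9 FPKM in the WT library, 2.47-fold lower (2.29 to 2.67), with a log2 difference of -1.17. Clcn3 made up 10.3% of the summed FPKM of the 6 expressed CLC genes in the KO-labelled library and 25.2% in the WT library. The transcript of Clcn2 has 56.8% GC and that of Clcn3 41.0%, and after subtraction of the GC and length trend the differences were 0.81 and -0.71, both short of the limit.

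The other CLC exchangers lay within 2-fold. Clcn4 was at 18.6 FPKM in the KO-labelled library and 19.6 FPKM in the WT library, the ratio having an interval from 0.885 to 1.02, and shares 11.5% of its exon bases with an antisense gene. The lysosomal exchanger Clcn7 was at 14.9 FPKM against 11.0 FPKM in the WT library (ratio 1.35, 1.23 to 1.48), and Clcn6 at 7.58 FPKM against 5.40 FPKM in the WT library. Clcn2 lies on chromosome 16 from 20702964 to 20717746 and Clcn3 on chromosome 8 from 60910389 to 60983300.

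Anoctamins include calcium-activated chloride channels and lipid scramblases. Of 6 expressed genes 5 were higher and 1 lower in the KO-labelled library, with a median log2 difference of 0.54, above 0 under all 8 alternative settings. Ano1, the calcium-activated chloride channel of epithelia and smooth muscle, was at 3.70 FPKM in the KO-labelled library and 1.35 FPKM in the WT library, giving a ratio of 2.75 (2.24 to 3.39). Its log2 difference of 1.00 lay at the limit and was below it under each of the 3 other scalings, after subtraction of the GC and length trend, and with a pseudocount of 5. Ano8, which tethers the endoplasmic reticulum to the plasma membrane, was at 14.4 and 7.30 FPKM in the KO-labelled library and the WT library (1.98, 1.78 to 2.20). Ano6, a scramblase, was at 18.6 and 16.3 FPKM, Ano10 at 7.16 and 9.21 FPKM and Ano7 at 1.32 and 0.794 FPKM. Ano1 lies on chromosome 7 from 144588549 to 144751974.

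TRP channels are cation channels of varied gating. Of 10 expressed genes 7 were higher and 3 lower in the KO-labelled library, with a median log2 difference of 0.32 that stayed above 0 under all 8 alternative settings. The calcium-activated cation channels Trpm5 and Trpm4 were both among those higher. Trpm5 was at 22.1 FPKM in the KO-labelled library and 14.8 FPKM in the WT library (ratio 1.50, 1.39 to 1.60). Trpm4, on chromosome 7 from 45302632 to 45333780, was at 7.21 FPKM in the KO-labelled library and 3.03 FPKM in the WT library (2.38, 2.04 to 2.77). The log2 difference of Trpm4 was 1.03, and below the limit under each of the 3 other scalings, at 0.66 after subtraction of the GC and length trend, and below it with a pseudocount of 5. Trpm7, a channel fused to a kinase, was at 5.37 and 5.89 FPKM in the KO-labelled library and the WT library (0.911, 0.826 to 1.00). Trpc1 was at 4.26 and 6.24 FPKM and Trpv2 at 2.85 and 1.56 FPKM.

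**Figure D3:**
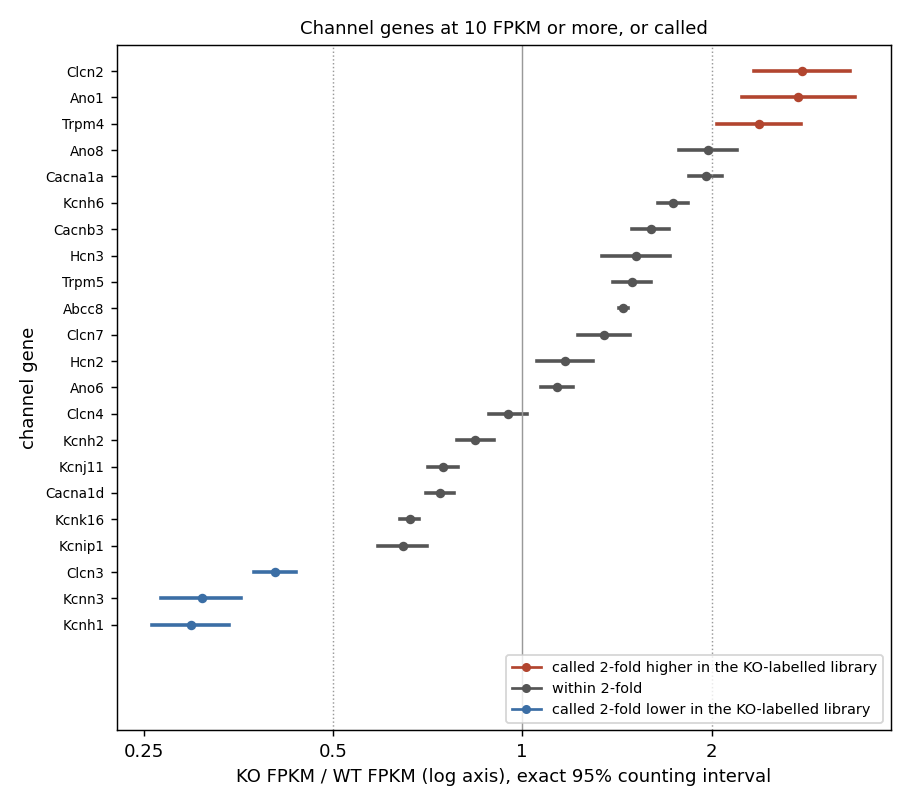
Ratio of FPKM in the KO-labelled library to FPKM in the WT library, on a log axis, for the channel genes described in the text that reached 10 FPKM in either library or were called, with exact 95% counting intervals as bars. Clcn2, Ano1 and Trpm4 lie right of the dotted line at 2 and Clcn3, Kcnn3 and Kcnh1 left of the one at 0.5, while Abcc8 and Kcnj11 lie on opposite sides of 1.

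The start regions of the called genes were read because they are the genes on which the counts above rest. RefSeq entries on GRCm38.p6, 250 bases before to 50 after a start, matched 61 of the 89 expressed channel genes. Of the called genes, Kcnn3, Kcnh1, Clcn2 and Ano1 had 1 entry each and are printed 5′ to 3′ on the gene's strand, Clcn3 had 2 entries, and Trpm4 is named only. The first 2 are genes called lower and the last 2 genes called higher in the KO-labelled library. The windows are chr3:89519914-89520213 (plus strand), chr1:192190527-192190826 (plus strand), chr16:20716587-20716886 (minus strand) and chr7:144738524-144738823 (minus strand). The Clcn2 and Ano1 windows lie inside the GENCODE M21 spans of these genes, whose 5′ ends are at 20717746 and 144751974. They are thus not at the outermost start of either gene in that annotation. Capitals mark GGGCGG or its reverse complement, the GC box bound by Sp1-type factors.
Kcnn3: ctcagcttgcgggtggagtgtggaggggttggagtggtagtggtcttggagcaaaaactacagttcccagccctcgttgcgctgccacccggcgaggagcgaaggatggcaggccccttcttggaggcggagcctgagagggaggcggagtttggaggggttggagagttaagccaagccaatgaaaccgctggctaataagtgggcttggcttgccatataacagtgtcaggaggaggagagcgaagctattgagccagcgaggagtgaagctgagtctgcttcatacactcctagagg
Kcnh1: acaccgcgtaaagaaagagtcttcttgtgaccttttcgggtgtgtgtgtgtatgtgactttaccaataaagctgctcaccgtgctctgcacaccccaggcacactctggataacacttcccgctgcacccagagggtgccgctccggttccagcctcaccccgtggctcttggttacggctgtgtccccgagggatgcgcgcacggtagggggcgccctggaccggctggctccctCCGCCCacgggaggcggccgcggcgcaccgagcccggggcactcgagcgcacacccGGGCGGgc
Clcn2: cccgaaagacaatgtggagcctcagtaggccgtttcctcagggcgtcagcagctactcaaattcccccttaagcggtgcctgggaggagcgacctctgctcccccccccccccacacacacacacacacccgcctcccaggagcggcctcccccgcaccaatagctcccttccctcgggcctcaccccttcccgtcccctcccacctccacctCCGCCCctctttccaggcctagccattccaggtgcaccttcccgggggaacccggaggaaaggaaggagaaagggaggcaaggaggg
Ano1: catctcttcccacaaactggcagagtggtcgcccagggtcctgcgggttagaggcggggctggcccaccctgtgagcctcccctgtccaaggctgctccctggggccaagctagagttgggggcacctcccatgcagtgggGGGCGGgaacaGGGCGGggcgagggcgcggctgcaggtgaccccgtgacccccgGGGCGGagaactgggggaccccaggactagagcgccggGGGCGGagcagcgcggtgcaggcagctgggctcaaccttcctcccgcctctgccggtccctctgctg
On both strands the GC box occurred 0 times in the Kcnn3 window, 2 times in that of Kcnh1, 1 time in that of Clcn2 and 4 times in that of Ano1, and 35.7% of all 32851 windows of this length hold it. The E-box CANNTG occurred 0, 0, 1 and 2 times, in the same order, and 72.3% of all windows hold it. None of the 4 windows held TATAAA, the C/EBP-type letters TTGCNNAA or the cAMP-response letters TGACGTCA, which 13.6%, 10.8% and 1.79% of all windows hold. No match of one motif overlapped a match of another in the 4 windows. Of the 4 printed windows, Kcnh1 from the genes called lower and Clcn2 and Ano1 from those called higher held the GC box, and its absence from the Kcnn3 window says only that these letters are not in those bases. The GC content of the windows was 57.7% for Kcnn3, 66.0% for Kcnh1, 65.7% for Clcn2 and 71.7% for Ano1, against a median of 52.7% over all windows.

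The differences of channel genes moved with the GC content of their transcripts, as did those of all genes. Among the 24 expressed channel genes below 50% GC the median log2 difference was -0.19, against -0.18 for all 5850 expressed genes in that class. For the 35 channel genes from 50% to 56% GC the median was 0.17, against 0.20 for all genes of the class. For the 30 channel genes at 56% GC or more it was 0.44, against 0.45 for all genes of the class. The median of the channel genes lay below that of all genes in each class, by at most 0.027 (differences of -0.0082, -0.027 and -0.0098 from the low to the high class). The Spearman correlation with GC content was 0.38 across the 89 channel genes and 0.42 across all 12356 expressed genes with a value, a description across genes that share both libraries. With transcript length it was -0.034 for channel genes and -0.39 for all genes. Among transcripts of 4900 bases or more the median was 0.11 for 30 channel genes and -0.25 for all 2691 genes of that class, and below 3400 bases 0.24 for 30 channel genes and 0.27 for all 6889 genes; whether the classes differ was not tested. At 56% GC or more, 3 of 30 channel genes were called higher and 0 lower, against 393 and 17 of all 2586 genes. From 50% to 56% GC, 1 of 35 was called higher and 2 lower, against 314 and 90 of all 3920 genes. Below 50% GC, 0 of 24 were called higher and 1, Clcn3, lower, against 147 and 371 of all 5850 genes.

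**Figure D4:**
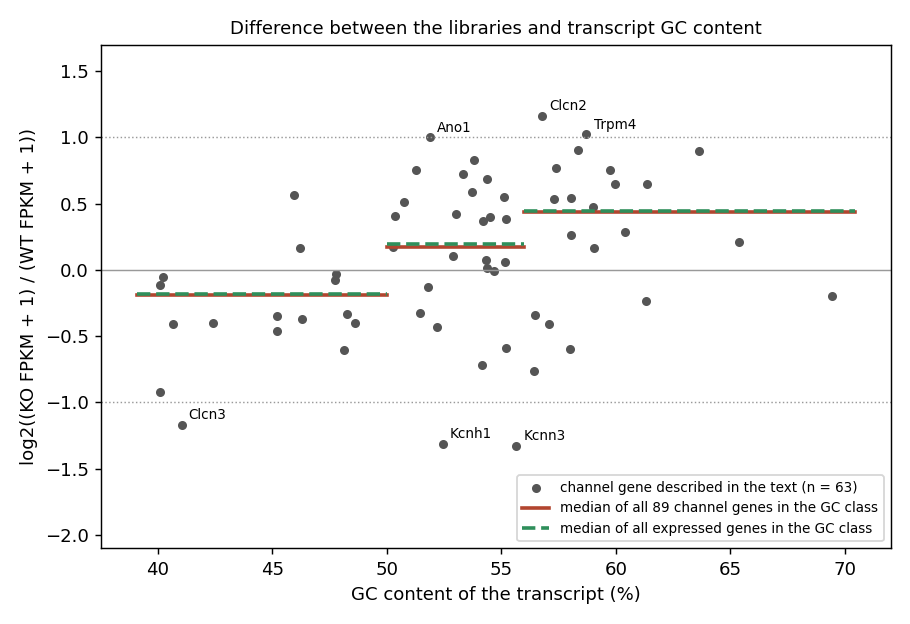
Log2 difference between the libraries, log2((KO FPKM + 1) / (WT FPKM + 1)), against GC content of the transcript for the expressed channel genes described in the text, with solid lines for the median of all 89 expressed channel genes in each of 3 GC classes and dashed lines for the median of all expressed genes in the class. The medians of the channel genes run from -0.19 to 0.44 and lie beside those of all genes, with Kcnn3 and Kcnh1 far below the line of their class.

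Among 12 channel genes best known from vessels and blood cells, 8 were expressed. Of these 8, 7 were higher in the KO-labelled library, while 64.0% of all expressed channel genes and 54.4% of all expressed genes lay above 0. The median log2 difference of the 8 was 0.38. With each library scaled to a sum of 1000000 it was 0.15, for the 10 genes then expressed. A floor of 5 FPKM left 1 gene, Kcnn3, at -1.33. The list was Kcnj8, Abcc9, Trpc6, Kcnmb1, Kcna5, Ano1, Kcna3, Kcnn4, Kcnn3, Kcnj2, Trpv2 and Trpv4, and Kcnn3 was the exception among the 8 expressed. Below 1 FPKM in both libraries, Kcna3 and Kcnmb1 were also lower in the KO-labelled library. Kcna3 was at 0.489 FPKM against 0.905 FPKM in the WT library, and Kcnmb1 at 0.551 FPKM against 0.840 FPKM. Trpc6 and Kcnj2, also below 1 FPKM in both libraries, were higher in the KO-labelled library. Trpv4, an osmotically sensitive channel of endothelium, was at 1.09 FPKM in the KO-labelled library and 0.501 FPKM in the WT library (2.18, 1.38 to 3.49). Kcnn4, a calcium-activated channel of blood cells, was at 1.56 and 1.10 FPKM, the ratio having an interval from 0.617 to 3.27 that does not separate the libraries. This interval rests on at least 14 and 13 reads, and true reads may be a multiple of these. Markers of endothelial, mural and macrophage cells were higher in the same library, as given above, and their part in these values was not tested.

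Besides 60 channel genes picked by a rule on abundance and calls, 29 were expressed, with log2 differences from -0.72 to 0.83 and a median of 0.18; 24 of them were higher in the KO-labelled library. The remaining 72 channel genes stayed below 1 FPKM in both libraries, the highest being Kcnh8 at 0.949 FPKM in the KO-labelled library and 0.944 FPKM in the WT library. At 0 FPKM were 4 of them in the KO-labelled library, namely Ano3, Cacna1s, Kcnv1 and Kcnv2, and 10 in the WT library. The skeletal-muscle pore Cacna1s was thus close to or at 0 in both libraries, at 0 FPKM in the KO-labelled library and 0.00791 FPKM in the WT library. Cacna1e, the R-type calcium pore that has been studied in mouse β-cells, was at 0.0922 and 0.0458 FPKM in the KO-labelled library and the WT library. Cacna1e was chosen after its values were seen.

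Pumps, exchangers and other channels that set ion gradients were followed as a list of 63 genes outside the channel families. Of 54 expressed members 1 was called higher and 1 lower at the 2-fold limit, 1.85% each, against 6.98% and 3.88% of all expressed genes. In direction 24 were higher and 30 lower, so 44.4% lay above 0, against 54.4% of all expressed genes. The median log2 difference was -0.097, against 0.077 for all expressed genes. Pumps were the lowest members. Atp2a2, the SERCA2 pump that fills the endoplasmic reticulum with calcium, was at 127 FPKM in the KO-labelled library and 299 FPKM in the WT library, giving a ratio of 0.423 (0.409 to 0.437) and a log2 difference of -1.23. Atp2c1, the calcium and manganese pump of the Golgi, was at 18.2 FPKM against 36.4 FPKM in the WT library, and Atp2b1, the plasma-membrane calcium pump, at 10.7 FPKM against 20.9 FPKM in the WT library.

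The highest members were led by cation-chloride cotransporters. Slc12a5, a potassium-chloride cotransporter best known from neurons, was at 8.58 FPKM in the KO-labelled library and 3.02 FPKM in the WT library, giving a ratio of 2.84 (2.50 to 3.23) and a log2 difference of 1.25, or 0.76 with a pseudocount of 5 FPKM. Its relative Slc12a4 was at 8.45 FPKM against 3.85 FPKM in the WT library. The mechanically gated channel Piezo1 was at 3.68 FPKM against 1.50 FPKM in the WT library, and the endolysosomal channel Tpcn2 at 2.40 FPKM against 0.973 FPKM in the WT library. These 3 stayed short of the limit on the log2(FPKM + 1) scale, with log2 differences of 0.96, 0.91 and 0.78. Their FPKM ratios were 2.20, 2.46 and 2.46. Without a floor on low values the median of the list was 0.015, on the other side of 0.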

How the data were processed

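RNA of mouse islets was sequenced in 2 samples, 1 library per genotype label, with libraries made by a SMARTER mRNA-Seq kit per the labels' protocols. The authors deposited 1 table of FPKM values, with 1 column per library; reads were placed on GRCm38 (mm10), per the submitters' processing notes. The sources used here give no aligner, counting tool, annotation or strand setting, so overlapping genes cannot be separated.

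The deposited values were used without scaling. Library totals and the smallest whole reads behind each gene were recovered by searching lengths from 60 to 30000 bases; reads were whole, to a tolerance of 1e-05 plus 1e-09 of the read number, for 17178 of 17245 genes (99.6%), and all 89 expressed channel genes did, against 1.50% of 1000 shuffled pairs. The smallest reads hold 91.3% and 90.1% of the totals, and true reads may be a multiple of them. They gave exact Clopper-Pearson 95% intervals of the ratio, which can be too wide and cover counting error only, since reads copied by PCR are not independent molecules. Read recovery and calls were tested on simulated data. Differences are log2((KO + 1)/(WT + 1)), a gene was kept if either library had 1 FPKM or more, and calls are at 2-fold. No p-value was computed, because there is no replicate. GC content, length, coordinates and exon overlaps came from GENCODE M21, which listed all 161 channel genes; the trend was removed by lowess (fraction 0.3, 3 iterations). Python 3.11.15, pandas 2.3.3, SciPy 1.17.1 and statsmodels 0.14.6 were used.

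Channel genes, families and lists were chosen with earlier results of these data known. The rule for genes to describe takes the KATP genes, up to 5 highest members of each family, every called gene, and 4 highest and 4 lowest ion-handling genes; others are said to be chosen after their values were seen or are single members of a described list. Values of a few genes picked in this way are not reported here or drawn in the figures, but these genes stay in all counts and medians. Alternatives were 2 pseudocounts, 2 floors, 3 scalings and the trend removal.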

Additional observations from a re-analysis of the deposited data

How the results depend on the processing

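No paired analysis was possible because each genotype has 1 library, and for the same reason no replicate could be left out. The number of channel genes called higher was 10 with a pseudocount of 0.1 FPKM and 0 with a pseudocount of 5 FPKM. It was 2 under each of the 3 scalings (sums of 1000000, the median ratio between libraries, and equal sums when the 20 highest genes are left out), and 1 after subtraction of the GC and length trend. The number at least 2-fold lower was 6 with a pseudocount of 0.1 FPKM and 0 with one of 5 FPKM, and 3 or 4 otherwise. The median of the channel genes was 0.067 without a floor, 0.040 with sums of 1000000 and 0.061 with equal sums leaving out the 20 highest genes; the cause was not tested. The median of all genes was -0.057 under the last of these, and higher genes made up 64.3% of all calls as deposited, 46.5% with sums of 1000000 and 44.3% without the 20 highest genes. The median of the channel genes lay above that of all genes under every setting, by 0.0061 to 0.15. The largest gap came with the GC and length trend removed. Within each of the 3 GC classes above, the median of the channel genes lay below that of all genes instead, by at most 0.027. Of the 9 calls on genes picked by the rule, 8 were lost with a pseudocount of 5 FPKM, 2 under each of the 3 scalings and 5 with the trend removed, and no call changed direction. On the same genes 7 calls were gained with a pseudocount of 0.1 FPKM, 4, 2 and 4 under the 3 scalings in the order above, and 2 with the trend removed. Genes within 2-fold could change sign: with the trend removed the log2 difference was -0.37 for Hcn2, -0.24 for Kcnk3, -0.27 for Kcnab3, -0.092 for Kcnab2 and -0.19 for Kcnn2, all above 0 as deposited, and 0.39 for Trpm7, 0.46 for Scn7a, 0.14 for Scn3b and 0.14 for Clcn4, all below 0 as deposited. Cacna1b, Kcnab3 and Kcnn2 also changed sign with sums of 1000000. The Spearman correlation of the differences with transcript length was -0.034 for channel genes and -0.39 for all genes. Whether a length trend of all genes holds for channel genes was not tested, which limits the reading of sign changes with the trend removed. Kcnn3 and Kcnh1 kept their calls in 7 of 8 alternatives each. The wide intervals of Kcnj8 and Kcnn4 rest on the smallest whole reads. True reads may be a multiple of them, so the sequenced depth of these genes is not known. The spread between animals is not measured by any value here.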

Other observations

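The gene lengths implied by the recovered reads differed from the annotation for a few channel genes. For 6 of the 89 expressed channel genes the implied length was over 2 times the union of GENCODE M21 exons, while the median over all 89 was 0.886 times. The implied length of Kcnmb2 was at least 26517 bases, against 3128 bases of GENCODE exons, 8.48 times as long. For Kcng3 it was at least 17750 bases against 3356, for Kcnk12 7628 against 1972, for Kcnj12 8638 against 2750, for Kcnj6 22471 against 7633 and for Kcnk1 5452 against 2235. The implied length of Kcnh6, set beside Kcnh2 above, was 1.66 times the GENCODE exons. An FPKM value is divided by this length, so the level of any gene set beside another depends on it. The ratio between the libraries does not depend on this divisor, because the same length divides both columns. Whether the ratio depends on which bases the reads were counted over was not tested.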
